A study of Homo sapiens with 2 samples.

Results

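Collagen chain genes were examined on day 4 of hematopoietic differentiation of H1 cells, in WT cells and in cells with MEIS2 deleted. A gene was kept when its NCBI Gene number corresponded to a current symbol made of COL, a type number from 1 to 28, the letter A and a chain number. By this rule 44 of the 17397 listed genes were collagen genes, of which 9 were fibrillar (types I, II, III, V and XI), 8 belonged to basement membrane types (IV, XV and XVIII) and 27 to other types. No expression value entered the choice.

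The data were 2 RNA-Seq libraries, 1 of each genotype. H1 is an established human embryonic stem cell line, labelled here as wildtype in one library and as MEIS2-/- in the other. Both cultures had received activin A with BMP4 for 2 days and then VEGF with bFGF for 2 days. The MEIS2-/- cells came from H1 cells transduced with a lentivirus carrying Cas9 and a guide to MEIS2, selected with puromycin and expanded from individual cells. The study obtained 2 homozygous clones, and neither the labels nor the methods say which was sequenced or whether the WT cells carried a control vector.

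Collagens are extracellular proteins built from chains that wind around each other in a triple helix. Fibrillar collagens form the cables of interstitial matrix, type IV collagen forms the sheet-like network of basement membranes under endothelium and epithelium, and fibril-associated and transmembrane collagens decorate fibrils or anchor cells to matrix. Chains are hydroxylated and folded in the endoplasmic reticulum, secreted, trimmed by proteases and cross-linked by lysyl oxidases. In the early embryo, mesodermal and mesenchymal cells are known producers of fibrillar collagens, while endodermal and endothelial cells deposit basement membrane.

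Expression was deposited as FPKM, fragments scaled to transcript length and to the total of mapped fragments, which is a level per unit of length and so allows levels of different genes to be compared within a library. Log2 fold changes are MEIS2-/- over WT after 0.1 FPKM was added to each value, which understates changes of genes with low levels. The 13075 genes that reached 1 FPKM in either library were compared. Over these, the median log2 fold change was 0.12, the lower and upper quartiles were -0.25 and 0.45, and 40.6% were lower in MEIS2-/- cells. The sum of all FPKM was 447542 for WT and 440651 for MEIS2-/-. The depth of the libraries is unknown, because low values did not fall on whole-read steps. MEIS2 itself was at 10.85 FPKM in the WT library and 3.44 FPKM in the MEIS2-/- library, with a log2 fold change of -1.63. No p-value is given because each genotype had a single library, so differences lack a replicate check. Fewer cells of a type cannot be told apart from less RNA per cell.

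Promoter sequences were taken from RefSeq on GRCh38.p14, which held 32 of the 44 genes. They show the DNA next to some genes at least 2-fold apart and next to a pair whose levels hardly differed. COL1A1, COL1A2, COL2A1 and COL5A2 were among the genes without an entry. COL17A1 had an entry but is not shown. COL5A1 and COL11A1 are the fibrillar genes with an entry whose level was at least 2-fold lower in the MEIS2-/- library. COL13A1 and COL23A1 are the transmembrane collagens that differed most in each direction. COL4A1 and COL4A2 face away from each other on chromosome 13, with 126 bases between their starts, and that whole stretch is shown. These genes were chosen after their values were seen. Capitals mark, on either strand, each GC box, spelled GGGCGG, each box of the letters CCAAT, and each TATA box, spelled TATAAA. Each other sequence is the 250 bases before the gene's start, read 5′ to 3′ in the direction of transcription, and the shared stretch is read in the direction of COL4A2. The places are chr13:110307158-110307283 for the shared stretch, on the plus strand, chr9:134641553-134641802 on the plus strand for COL5A1, chr1:103108523-103108772 on the minus strand for COL11A1, chr10:69801656-69801905 on the plus strand for COL13A1 and chr5:178590394-178590643 on the minus strand for COL23A1.
Between COL4A1 and COL4A2: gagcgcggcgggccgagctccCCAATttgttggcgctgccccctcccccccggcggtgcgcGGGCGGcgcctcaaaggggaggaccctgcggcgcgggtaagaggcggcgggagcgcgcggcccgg
COL5A1: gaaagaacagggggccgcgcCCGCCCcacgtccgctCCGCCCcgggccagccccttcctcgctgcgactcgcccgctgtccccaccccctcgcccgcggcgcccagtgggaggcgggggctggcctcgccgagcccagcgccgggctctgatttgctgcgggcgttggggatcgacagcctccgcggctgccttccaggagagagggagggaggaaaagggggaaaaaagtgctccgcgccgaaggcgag
COL11A1: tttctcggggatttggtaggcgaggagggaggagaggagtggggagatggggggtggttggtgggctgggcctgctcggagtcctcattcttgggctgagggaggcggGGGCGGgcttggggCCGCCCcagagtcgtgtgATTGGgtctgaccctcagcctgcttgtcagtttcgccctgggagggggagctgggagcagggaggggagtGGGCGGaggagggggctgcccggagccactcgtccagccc
COL13A1: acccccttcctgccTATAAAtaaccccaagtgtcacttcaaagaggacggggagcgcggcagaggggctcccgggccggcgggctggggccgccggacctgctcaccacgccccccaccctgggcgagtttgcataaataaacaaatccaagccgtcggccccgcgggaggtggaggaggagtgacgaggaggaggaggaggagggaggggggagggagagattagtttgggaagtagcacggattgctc
COL23A1: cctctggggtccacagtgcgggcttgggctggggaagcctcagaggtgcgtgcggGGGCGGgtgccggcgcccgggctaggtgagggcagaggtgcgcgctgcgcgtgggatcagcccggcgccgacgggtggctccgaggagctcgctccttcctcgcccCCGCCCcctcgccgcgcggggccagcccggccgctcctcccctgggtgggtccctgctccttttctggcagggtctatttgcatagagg

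The stretch shared by COL4A1 and COL4A2 held 1 CCAAT box, 101 bases before the COL4A2 start, and 1 GC box at 60 bases. COL11A1 had 3 GC boxes, the nearest 35 bases before its start, and 1 CCAAT box at 106 bases. COL5A1 had 2 GC boxes and COL23A1 had 2. COL13A1 had no GC box and held a TATAAA 231 bases before its start. None of these matches overlapped another. Over the 32 collagen genes with an entry, 21 held a GC box in the 250 bases before at least 1 start, 11 a CCAAT box, 7 a TATA box and 6 the core letters bound by MEIS proteins, TGACAG. A window of the same length held these motifs in 42.6%, 32.0%, 10.7% and 13.03% of all 35116 promoters in the table, respectively. The collagen counts are per gene and some genes have several starts, so they are not set against those shares. None of the 5 stretches shown held TGACAG. These are matches of letters and not binding sites.

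Of the 44 collagen genes, 31 reached 1 FPKM in either library. The 3 groups differed between the libraries in unlike ways, and of their medians the fibrillar one lay farthest from that of all compared genes. Of the 31 genes, 7 (22.6%) had a level at least 2-fold lower in the MEIS2-/- library, beside 7.97% of all compared genes. At least 2-fold higher were 4 (12.9%), beside 7.84% of all compared genes. The other 20 differed by less than 2-fold. The median log2 fold change of the 31 genes was -0.08, beside 0.12 over all compared genes. The fibrillar median was -1.24 over 8 genes, the basement membrane median 0.18 over 5 genes and the median of the other types -0.09 over 18 genes. Of the 7 genes that were at least 2-fold lower, 5 are fibrillar. When a shared shift of 0.12 was taken out, namely the median log2 ratio over genes with both values at or above 5 FPKM, the fibrillar median was -1.36 and the basement membrane median 0.06.

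**Figure D1:**
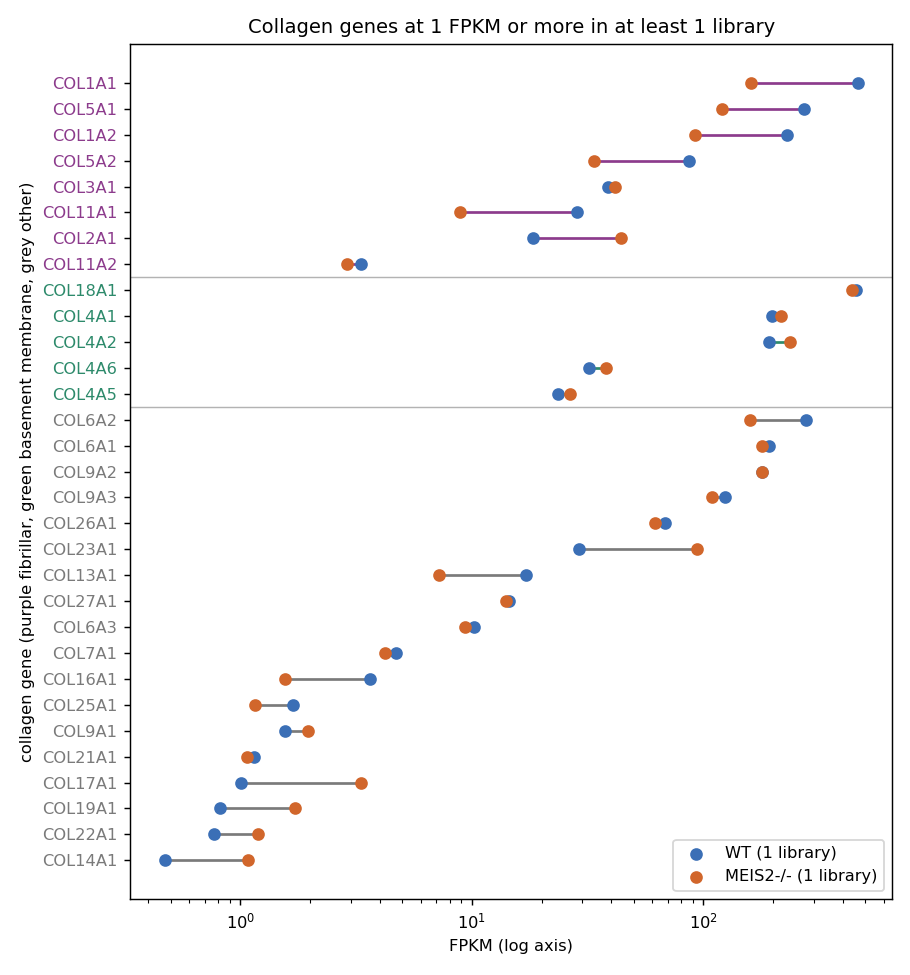
FPKM on a log axis of the 31 collagen genes that reached 1 FPKM in either library, grouped as fibrillar, basement membrane and other, with 1 point per library. The points of COL1A1, COL1A2, COL5A1, COL5A2 and COL11A1 lie far apart with WT to the right, while both points of each basement membrane gene lie close together.

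Type I collagen is the main fibril former of connective tissue and was the most highly expressed fibrillar type. COL1A1, which encodes its α1 chain, was at 464 FPKM in the WT library and 161 FPKM in the MEIS2-/- library, a log2 fold change of -1.53. It was the collagen gene of highest level in WT cells, ranking 136 among all listed genes, and it ranked 412 in MEIS2-/- cells. COL1A2, encoding the α2 chain, was at 229 FPKM and 91.8 FPKM, with a log2 fold change of -1.32. Both chains were thus lower in MEIS2-/- cells, at 34.7% and 40.0% of their WT level.

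Type V collagen starts and limits the width of type I fibrils, and its genes differed in the same direction. COL5A1 was at 271 FPKM in the WT library and 120.3 FPKM in the MEIS2-/- library, a log2 fold change of -1.17. COL5A2 was at 86.4 FPKM and 33.8 FPKM, a log2 fold change of -1.35. COL5A3, the third chain of the type, was at 0.06 FPKM and 0.04 FPKM and was not compared. Type XI collagen is the relative of type V that sits inside cartilage fibrils. COL11A1, its α1 chain, was at 28.5 FPKM in the WT library and 8.90 FPKM in the MEIS2-/- library. Its log2 fold change of -1.67 was the lowest of any collagen compared and ranked 389 from the lowest among the 13075 genes. COL11A2 was low in both libraries, at 3.33 FPKM and 2.90 FPKM.

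The remaining fibrillar genes did not follow types I and V. COL3A1, whose homotrimer is found with type I in skin and vessel walls, was at 38.6 FPKM in the WT library and 41.5 FPKM in the MEIS2-/- library. Its log2 fold change was 0.10, and -0.01 once the shared shift was taken out, so its direction depends on the scaling. COL2A1, the main collagen of cartilage and notochord, went the opposite way to type I, with 18.4 FPKM in the WT library and 44.2 FPKM in the MEIS2-/- library. Its log2 fold change was 1.26. Not every fibrillar gene was therefore lower. Of the 8 compared, 6 had lower values, 5 by at least 2-fold, and 2 had higher values, 1 by at least 2-fold. Of all compared genes, 40.6% were lower, 7.97% at least 2-fold lower and 7.84% at least 2-fold higher. All 12 mesenchyme and fibroblast markers listed here were also lower in the MEIS2-/- library, with summed levels of 3584 and 1386 FPKM. VIM alone made up 3048 and 1014 FPKM of these sums. The part of these markers in the fibrillar values was not tested.

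**Figure D2:**
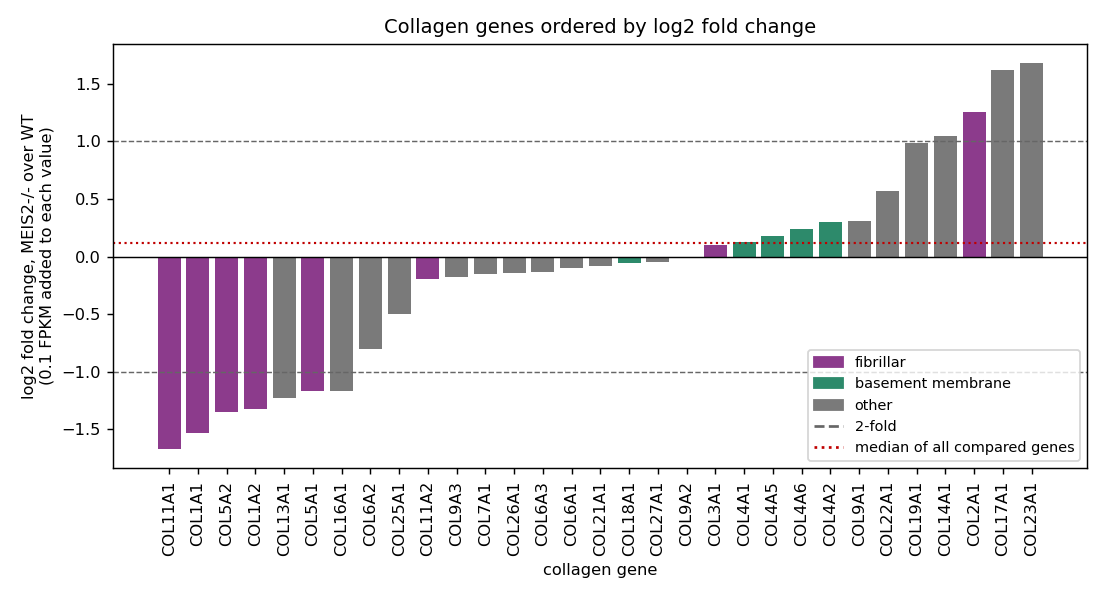
Log2 fold change of MEIS2-/- over WT for each of the 31 compared collagen genes, ordered from lowest to highest and coloured by group. Dashed lines mark 2-fold and the dotted line the median of all 13075 compared genes, 0.12. The 6 lowest bars are those of 5 fibrillar genes and COL13A1, and the basement membrane bars lie between -0.06 and 0.30.

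Basement membrane collagens were expressed at similar levels in the 2 libraries. COL4A1 and COL4A2 encode the chains of the type IV network found in nearly all basement membranes. COL4A1 was at 197 FPKM in the WT library and 216 FPKM in the MEIS2-/- library. COL4A2 was at 191 FPKM and 236 FPKM. Their log2 fold changes were 0.13 and 0.30, around the 0.12 of all compared genes. COL4A5 and COL4A6, chains of a second type IV network that lie head to head on the X chromosome, were at 23.5 and 32.0 FPKM in WT cells. In MEIS2-/- cells they were at 26.5 and 37.8 FPKM. COL4A3 and COL4A4, chains of the mature kidney and lung network, were at 0.01 FPKM each in WT cells, and in MEIS2-/- cells COL4A3 was listed at 0 and COL4A4 at 0.05 FPKM. Of the 3 head-to-head pairs of type IV genes, COL4A1 with COL4A2 had the highest levels in both libraries and COL4A3 with COL4A4 the lowest.

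COL18A1, whose C-terminal fragment is endostatin, was the basement membrane collagen of highest level. It was at 456 FPKM in the WT library and 438 FPKM in the MEIS2-/- library, a log2 fold change of -0.06. COL1A1 and COL18A1 were nearly level in WT cells, and in MEIS2-/- cells COL18A1 was the highest of all collagens. COL15A1, its closest relative, was at 0.35 FPKM and 0.46 FPKM. None of the 5 compared basement membrane genes differed by 2-fold in either direction. Of all compared genes, 7.97% were at least 2-fold lower and 7.84% at least 2-fold higher. For 5 genes, none is near those shares. In the same libraries endothelium markers summed to 747 and 403 FPKM and visceral and parietal endoderm markers to 581 and 1120.5 FPKM. APOA1 alone made up 401 and 879 FPKM of the endoderm sums. Of the 14 endoderm markers, 12 were higher and 2 lower in the MEIS2-/- library. The 2 lower were GATA6, at 72.5 and 55.4 FPKM, and THBD, at 1.88 and 1.03 FPKM. This list joins visceral and parietal endoderm, and its sums do not tell them apart. The part of these cell types in the basement membrane levels was not tested.

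The make-up of the collagen RNA accordingly differed between the libraries. Summed over the 44 genes, collagen FPKM was 2967 in WT cells and 2290 in MEIS2-/- cells, 0.663% and 0.520% of all FPKM. The fibrillar sum was 1139 FPKM in the WT library and 504 FPKM in the MEIS2-/- library. The basement membrane sum was 899.9 FPKM and 954 FPKM. The sum of the other types was 928 FPKM and 831 FPKM. Fibrillar genes thus made up 38.4% of collagen FPKM in WT cells and 22.02% in MEIS2-/- cells, and basement membrane genes 30.3% and 41.7%. COL1A1 alone was 303 FPKM lower, of a collagen total that was lower by 677 FPKM.

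By type, type I ranked 1 of 28 in WT cells, with a sum of 693 FPKM, and 5 in MEIS2-/- cells, with 253 FPKM. Type IV ranked 4 in WT cells, with 444 FPKM, and 1 in MEIS2-/- cells, with 516 FPKM. Type V was at 357 FPKM and 154 FPKM. The 10 genes of highest level held 86.9% of collagen FPKM in WT cells and 82.6% in MEIS2-/- cells.

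Type VI collagen forms beaded microfilaments around cells, and its 3 main chains did not differ alike. COL6A1 was at 191 FPKM in the WT library and 179 FPKM in the MEIS2-/- library, a log2 fold change of -0.10. COL6A2 was at 277 FPKM and 159 FPKM, a log2 fold change of -0.80, which is short of 2-fold. COL6A3 was at 10.2 FPKM and 9.31 FPKM. In both libraries COL6A3 was thus far below the chains it assembles with. COL6A5 was listed at 0 in WT cells and at 0.07 FPKM in MEIS2-/- cells, and COL6A6 was at 0.72 and 0.74 FPKM.

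Fibril-associated collagens have helices broken by short gaps and bind to the surface of fibrils. Of their 10 genes 8 were compared, with 1 at least 2-fold lower and 1 at least 2-fold higher, beside 7.97% and 7.84% of all compared genes. Type IX, a partner of type II in cartilage, was the type of highest level among them. COL9A2 was at 179.5 FPKM in the WT library and 179.1 FPKM in the MEIS2-/- library, a log2 fold change of -0.0029. COL9A3 was at 123 FPKM and 109 FPKM. COL9A1 was at only 1.55 FPKM and 1.95 FPKM, although the α1 chain is part of the known type IX trimer. The rest of the class was low. COL16A1 was at 3.63 FPKM and 1.56 FPKM, a log2 fold change of -1.17 that became -0.85 with a pseudocount of 1 FPKM. COL14A1 was at 0.47 FPKM in the WT library and 1.08 FPKM in the MEIS2-/- library, a log2 fold change of 1.05. It came to 0.94 without the shared shift and 0.50 with a pseudocount of 1 FPKM, so it lies at the edge of both the filter and the 2-fold threshold. COL19A1 was at 0.82 and 1.72 FPKM, a ratio of 2.10 as deposited. Its log2 fold change was 0.98 with 0.1 FPKM added and 1.06 with 0.01 FPKM added, so its side of the 2-fold threshold depends on the pseudocount. COL21A1 was at 1.14 and 1.07 FPKM, and COL22A1 at 0.77 and 1.19 FPKM. COL12A1, at 0.22 and 0.35 FPKM, and COL20A1, listed at 0 and at 0.02 FPKM, were not compared.

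Transmembrane collagens span the cell membrane and can be shed from it. All 4 were compared, with 1 at least 2-fold lower and 2 at least 2-fold higher, beside 7.97% and 7.84% of all compared genes. COL23A1 was at 29.1 FPKM in the WT library and 93.4 FPKM in the MEIS2-/- library. Its log2 fold change of 1.68 was the highest of any collagen and ranked 323 from the highest among the 13075 genes. COL17A1, a component of the hemidesmosomes that tie epithelium to basement membrane, was at 1.01 FPKM and 3.31 FPKM. Its log2 fold change of 1.62 became 1.10 with a pseudocount of 1 FPKM. COL13A1, found at cell adhesions and neuromuscular junctions, was at 17.1 FPKM in the WT library and 7.23 FPKM in the MEIS2-/- library, a log2 fold change of -1.23. COL25A1, known from neurons, was at 1.68 FPKM and 1.16 FPKM.

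The other types had little difference or little expression. COL26A1 was at 68.3 FPKM in the WT library and 62.0 FPKM in the MEIS2-/- library. COL27A1, which forms fibrils in cartilage though its type lies outside the fibrillar group used here, was at 14.47 and 13.97 FPKM. COL7A1, the chain of the anchoring fibrils below skin epithelium, was at 4.70 and 4.23 FPKM. COL24A1 was at 0.03 and 0.05 FPKM and COL28A1 was listed at 0 and at 0.04 FPKM. The network-forming genes COL8A1, COL8A2 and COL10A1 were below the filter, with COL8A2 at 0.40 FPKM in the WT library and 0.13 FPKM in the MEIS2-/- library. In all, 13 collagen genes were below 1 FPKM in both libraries, and their highest value was 0.74 FPKM.

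Chains that assemble together were compared within each library, where FPKM gives their levels per length. Of 11 pairs listed, 9 had both chains at or above 1 FPKM in both libraries. COL1A1 was at 2.03 times the level of COL1A2 in WT cells and 1.75 times in MEIS2-/- cells. COL5A1 was at 3.14 and 3.56 times the level of COL5A2. COL4A1 was at 1.03 and 0.915 times the level of COL4A2, and COL4A5 at 0.733 and 0.703 times the level of COL4A6. Chains of types I, IV and V therefore kept nearly their WT ratio, with log2 differences of the ratio from -0.21 to 0.18. COL9A2 was at 1.46 and 1.64 times the level of COL9A3. The ratio of COL6A1 to COL6A2 was 0.691 in WT cells and 1.13 in MEIS2-/- cells, a log2 difference of 0.71. The ratio of COL11A1 to COL11A2 differed most, at 8.56 in WT cells and 3.07 in MEIS2-/- cells. COL6A1 was at 18.8 and 19.2 times the level of COL6A3, and COL9A1 at 0.0086 and 0.011 times that of COL9A2.

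Neighbours on a chromosome were also set side by side, in the gene order of RefSeq. COL3A1 and COL5A2 are adjacent on chromosome 2, with no protein-coding gene between them, and had log2 fold changes of 0.10 and -1.35. COL6A1 and COL6A2, adjacent on chromosome 21, had -0.10 and -0.80. COL19A1 and COL9A1, adjacent on chromosome 6, had 0.98 and 0.31. Of the head-to-head pairs, COL4A1 with COL4A2 had 0.13 and 0.30, and COL4A6 with COL4A5 had 0.24 and 0.18. COL18A1 and COL6A1, with 2 protein-coding genes between them on chromosome 21, had -0.06 and -0.10. The head-to-head pair COL4A4 with COL4A3 and the neighbours COL6A5 and COL6A6 were below the filter.

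Genes that make, process and bind collagen were taken from 6 lists chosen by function. Their counts stand beside 7.97% at least 2-fold lower and 7.84% at least 2-fold higher over all compared genes. The list of folding, modification and secretion genes had 21 of 23 genes compared, 3 at least 2-fold lower and none at least 2-fold higher, with a median log2 fold change of -0.40. The 3 were P4HA1 and P4HA2, the catalytic subunits of prolyl 4-hydroxylase, and PLOD2, a lysyl hydroxylase. P4HA1 was at 135 FPKM in the WT library and 16.96 FPKM in the MEIS2-/- library, P4HA2 at 72.1 and 10.8 FPKM and PLOD2 at 38.8 and 10.5 FPKM. In processing and cross-linking 13 of 16 genes were compared, 5 at least 2-fold lower and none at least 2-fold higher, with a median of -0.57. The lysyl oxidase LOX was at 13.7 FPKM in the WT library and 2.04 FPKM in the MEIS2-/- library. Its relatives LOXL2, at 103 and 48.1 FPKM, and LOXL3, at 10.6 and 3.77 FPKM, were lower too.

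Matrix partners were listed apart for fibrils and for basement membrane, with the same 7.97% and 7.84% of all compared genes as background. Among interstitial partners of collagen fibrils 16 of 23 were compared, 3 at least 2-fold lower and none at least 2-fold higher, with a median of -0.44. These were the small proteoglycans BGN, at 33.98 and 13.31 FPKM, and FMOD, at 33.56 and 10.04 FPKM, and the tenascin TNXB, at 6.27 and 1.78 FPKM. Of the 16 interstitial partners compared, 12 were lower and 4 higher. The summed level of this list was not lower, at 2009 FPKM for WT and 2066 FPKM for MEIS2-/-. FN1 alone made up 900 and 1195 FPKM of these sums. Among basement membrane partners 14 of 17 were compared, with 2 at least 2-fold lower, 3 at least 2-fold higher and a median of -0.03. NID2, a nidogen that links laminin to type IV collagen, was at 57.9 FPKM in the WT library and 24.8 FPKM in the MEIS2-/- library. LAMC3 was at 18.3 and 7.27 FPKM. The laminin chain LAMA4 was at 0.75 FPKM in the WT library and 17.3 FPKM in the MEIS2-/- library, and TINAGL1 at 3.77 and 10.9 FPKM.

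Receptors and breakdown genes were read against the same background, 7.97% lower and 7.84% higher. Collagen receptors had 9 of 13 genes compared, with 3 at least 2-fold lower, 1 at least 2-fold higher and a median of -0.48. ADGRG6, an adhesion receptor that binds type IV collagen, was at 10.4 FPKM in the WT library and 5 FPKM in the MEIS2-/- library. Of the proteases that break collagen down and their inhibitors, 11 of 16 were compared, with 1 at least 2-fold lower, 1 at least 2-fold higher and a median of -0.09, shares near those of all compared genes. The lower gene was RECK, an inhibitor of matrix metalloproteinases, at 16.4 and 8.08 FPKM. The higher gene was CTSL, a lysosomal protease, at 41.8 FPKM in the WT library and 122 FPKM in the MEIS2-/- library.

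Markers of cell types that a day 4 culture could hold were set beside the collagens. Of all compared genes, 7.97% were at least 2-fold lower and 7.84% at least 2-fold higher, and the counts of each list stand beside these shares. All 12 mesenchyme and fibroblast markers were compared and each was lower in the MEIS2-/- library, with 5 past 2-fold. VIM made up most of their summed level, at 3048 FPKM for WT and 1014 FPKM for MEIS2-/-. PDGFRB, a mural and mesenchymal receptor, was at 23.98 and 10.80 FPKM, and TCF21 at 8.64 and 3.36 FPKM. The endothelium list had 13 of 14 markers compared, 12 of them lower and 9 at least 2-fold lower. KDR was at 324 and 62.0 FPKM, ETV2 at 109.6 and 17.5 FPKM and ERG at 6.82 and 1.43 FPKM. The 1 higher member of this list, SOX17, named after its value was seen, was at 141 and 264 FPKM, short of 2-fold. The hematopoiesis list had 7 of 12 compared, 4 at least 2-fold lower, with sums of 199 and 82.9 FPKM. Of 12 mesoderm markers, 3 were at least 2-fold lower and 2 at least 2-fold higher, with sums of 770 and 533 FPKM. Visceral and parietal endoderm markers had 7 of 14 at least 2-fold higher and none at least 2-fold lower. Only 9 of the 14 reached 1 FPKM in WT cells, while all 14 did so in MEIS2-/- cells. AFP, TTR, APOB and CUBN, among the 7, were below that filter in WT cells, at 0.32, 0.38, 0.27 and 0.32 FPKM. In MEIS2-/- cells they were at 3.91, 5.31, 3.72 and 1.19 FPKM. The rest of the 7, namely APOA1, HNF4A and FOXA1, were above 1 FPKM in both libraries. Markers of undifferentiated pluripotent cells had 9 of 10 compared, 5 at least 2-fold higher, and sums of 651 and 1947 FPKM. POU5F1 alone made up 286 and 1454 FPKM of these sums. Of the 9, 7 were higher and 2 lower in the MEIS2-/- library. The marker not compared was SOX2, at 0.09 and 0.15 FPKM, so this list does not show undifferentiated cells by itself. None of the genes in these lists was listed at 0 in either library. The part of these cell types in the collagen values was not tested, and genotype, clone and culture cannot be told apart with 1 library each.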

How the data were processed

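RNA-Seq was performed by BGI, and per the labels libraries were made from Trizol RNA with a TruSeq RNA kit. The submitters' processing notes name hg19, BWA, Bowtie and RSEM, without roles. Versions and strand handling are not given in the sources used here, so reads of a collagen gene and of an antisense gene may not be separable. The authors deposited FPKM, 1 value per gene and library, rounded to 2 decimals. Both tables list 17397 genes by NCBI Gene number, and 17365 matched a RefSeq symbol. Agreement of low values with whole reads (1 is complete) reached 0.18 in WT and 0.15 in MEIS2-/- cells, over 404 and 408 short genes with a single transcript.

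Values were used as deposited, without rescaling. Every collagen gene is named, and of the other lists up to 3 of the lowest and 3 of the highest genes past 2-fold and at 5 FPKM or more. SOX17, SOX2, APOA1, NOTO, GATA6, THBD, FN1, AFP, APOB and CUBN were named outside this rule. The members and lists were chosen with earlier results of these data known. Alternatives were pseudocounts of 1 and 0.01 FPKM, no filter or 5 FPKM, and thresholds of 1.5-fold and 4-fold. Further alternatives were rescaling by the median log2 ratio or by an unweighted trimmed mean of log ratios (TMM). The collagen sum was also taken without COL18A1, the collagen gene of highest mean FPKM. The arithmetic was checked on the WT values with planted 4-fold changes and a planted shared scale, without added noise. Python 3.11.15, numpy 2.4.6, pandas 2.3.3 and matplotlib 3.10.9 were used.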

Additional observations from a re-analysis of the deposited data

How the results depend on the processing

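The count of collagen genes at least 2-fold lower, 7, became 6 with a pseudocount of 1 FPKM or a filter at 5 FPKM, 8 without a filter or at 1.5-fold, and 0 at 4-fold. The count at least 2-fold higher, 4, became 3 with a pseudocount of 1 FPKM or either rescaling, 5 with a pseudocount of 0.01 FPKM or at 1.5-fold, 2 with a filter at 5 FPKM, which leaves 21 genes, and 0 at 4-fold. Rescaling by the median log2 ratio moved the median of all collagen genes to -0.19, of fibrillar genes to -1.36, of basement membrane genes to 0.063 and of the other types to -0.20, and the log2 ratio of summed collagen FPKM from -0.37 to -0.49. Rescaling by TMM gave -1.35, 0.073 and -0.48 for the fibrillar and basement membrane medians and the sum. Without COL18A1 the log2 ratio of the sum was -0.44. The sum was not taken without COL1A1. The shifts applied were 0.12 for the median log2 ratio and 0.10 for TMM. Of 124 alternative values of single genes, 5 crossed 2-fold, for COL14A1, COL16A1 and COL19A1, and 2 changed sign, both for COL3A1 on rescaling.

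No paired analysis was possible because each genotype has 1 library, and no replicate was left out for the same reason. Low values such as those of the 13 genes under 1 FPKM carry unknown counting error, since the depth is unknown.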

Other observations

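Genes of cartilage and notochord were listed because type II, IX and XI collagens are best known from these tissues. Of 12 such genes, 6 were compared. HAPLN1, a link protein of the hyaluronan matrix, was at 282 FPKM in the WT library and 136 FPKM in the MEIS2-/- library. SHH, a notochord and endoderm signal, was at 0.83 and 5.57 FPKM. NOTO was at 0.03 FPKM in WT cells and listed at 0 in MEIS2-/- cells. Of the 6, 2 were at least 2-fold lower and 1 at least 2-fold higher, beside 7.97% and 7.84% of all compared genes. The summed level of the list was 313 and 164 FPKM. Without HAPLN1 the sums were 31.4 and 28.2 FPKM.

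Transcript lengths were matched for 42 of the 44 collagen genes (95.5%), from 2485 to 11723 bases with a median of 5955. Over the 30 compared genes with a length, which share the 2 libraries, Spearman's rho between log2 fold change and length was -0.062, and between log2 fold change and GC content -0.10.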
